A study of Mus musculus with 4 samples.

Results

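Gene expression in a mouse testis RNA library labelled embryonic day 18 (E18) was compared with that in a library labelled embryonic day 14 (E14), gene by gene. An entry of the deposited tables was included when it reached 1 RPKM (reads corrected for gene length and sequencing depth) in either library, which 25435 of 112302 entries did. Of these, 9994 carried an established gene symbol, out of 21046 such symbols in the tables, and the others were predicted genes, database identifiers and accessions. The difference was that of log2(RPKM + 1), E18 minus E14, and an entry was called higher or lower at E18 at a difference of at least 1 in size, which is 2-fold on that scale. The pseudocount of 1 understates the change of low genes.

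The series holds 4 libraries of testis RNA from the BALB/C strain, 1 at each of E14, E18, 3 weeks and 6 months after birth, and its title names endonucleolytic cleavage of RNA. No treatment, mutation or transgene is named for any group, so the fetal groups differ, per the labels, in age alone. The total RNA was bought from the supplier Zyagen, depleted of ribosomal RNA, mixed with spike-in RNA and passed through a poly(A) selection, although the sample description names the ribosomal depletion alone. The labels do not say how many fetuses gave each RNA, whether they were pooled, or how the gonad was dissected. Each stage is 1 library, which gives neither a replicate error nor a test, so "higher" and "lower" describe these libraries. The postnatal libraries entered no difference and serve as levels only.

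The fetal testis is built around cords of Sertoli cells, which enclose the germ cells and secrete anti-Müllerian hormone, and between the cords lie Leydig cells, which make androgen and the hormone of testicular descent. Cords form before the earlier stage, and the germ cells inside them then leave the cell cycle and rest until after birth. The gonad develops on the surface of the mesonephros, the embryonic kidney whose ducts become the epididymis, and lies close to the definitive kidney, the adrenal, the gut and the body wall.

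The check of the labels came out differently for the libraries. Sry, the Y-linked switch of testis fate, was listed at 0 in both fetal libraries. Sox9, its target in Sertoli cells and also a gene of cartilage, was at 4.00 RPKM at E14 and 2.12 at E18. Amh, the anti-Müllerian hormone, was at 0.262 and 11.4 RPKM, and Dmrt1, a Sertoli and germ cell transcription factor, at 0.0198 and 3.18. Foxl2, the ovarian regulator, was at 0.112 and 0.452. Amh and Dmrt1 were thus near 0 at E14 and above 1 RPKM at E18, whereas Sox9 was present in both.

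Sex-linked genes also differed. Xist, the RNA that coats the inactive X chromosome of female cells, was at 12.7 RPKM at E14, on 8875 reads, and at 0.124 at E18, on 76 reads. Its antisense partner Tsix was at 7.04 and 0.0950, and reads of the pair cannot be told apart where the treatment of strand is not given. Ddx3y, Uty and Eif2s3y, broadly expressed Y-linked genes, were at 1.47, 1.00 and 1.04 RPKM at E14 and at 4.70, 3.17 and 3.16 at E18. The library labelled E14 testis thus held Xist together with Y-linked transcripts. The part of these sex-linked levels in the differences described here was not tested. Every direction given here is that between a library labelled E14 and a library labelled E18.

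The RPKM values rested on 38903334 reads at E14 and 34228140 at E18. A gene model of 1 kb with 3 reads would stand at 0.0771 RPKM in the former and 0.0876 in the latter. Intervals of ratios given below are exact 95% Clopper-Pearson intervals from the recovered reads. They hold the error of counting alone, because PCR copies of a molecule are not independent.

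Of the 25435 entries, 934 (3.67%) were higher at E18 and 574 (2.26%) lower, while 94.1% lay within 2-fold. Among established symbols 446 (4.46%) were higher and 255 (2.55%) lower, and at 4-fold 72 (0.72%) and 51 (0.51%). The median difference over all entries was 0.10 and the central 90% of differences ran from -0.64 to 0.84. The split between directions depended on the scaling. When E18 was rescaled by the median of ratios, which moved the median of all entries by -0.11, the counts were 690 and 669, or 50.8% higher against 61.9% on the deposited scale. Rescaling to an equal sum over ribosomal protein genes gave 720 and 650 (52.6% higher). The counting interval of the ratio excluded 1 for 663 of the 701 called established symbols. These symbols were called on a difference from the same reads, so this count describes the calls and does not test them. Of the called symbols, 19 higher and 17 lower ones had 0 reads in a library.

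**Figure D1:**
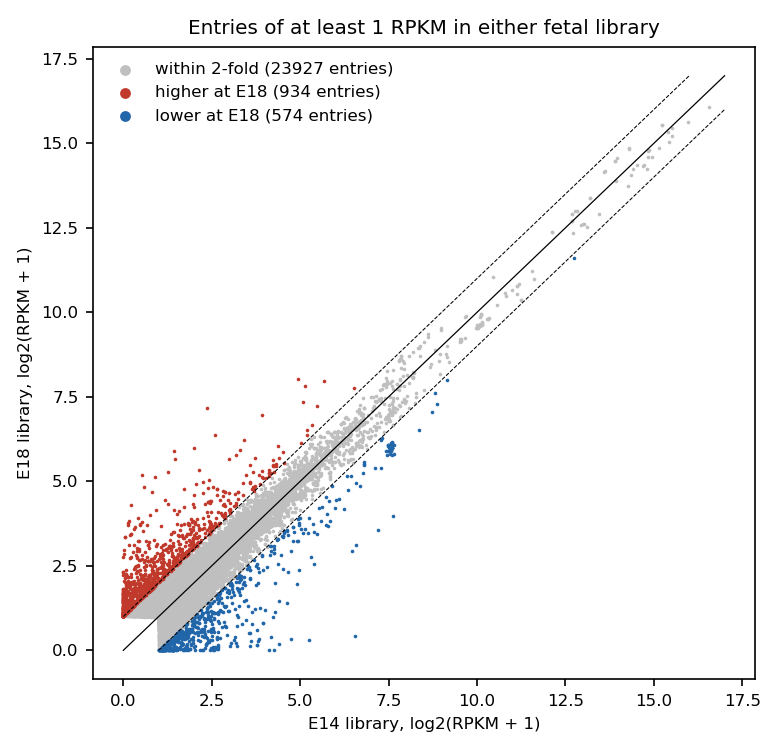
Each point is an entry of at least 1 RPKM in either fetal library, placed by its log2(RPKM + 1) at E14 (horizontal) and at E18 (vertical), with dashed lines at 2-fold. The 934 red entries are higher and the 574 blue entries lower at E18, and the remaining entries lie along the diagonal.

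The tissue make-up of the libraries was read from 39 gene lists of cell types and organs. In a list, a member is called measured when it reached 1 RPKM in either fetal library. A member that reached this level only through the library where it was high had to differ, so the counts describe the lists and support nothing beyond them. In bulk RNA, fewer cells of a type and less RNA per cell cannot be told apart. Summed over the 102 members of the testis lists, the level was 527 RPKM at E14 and 1811 at E18, and members of at least 1 RPKM numbered 49 and 77. For the 101 members of the urinary lists the sums were 184 and 338 RPKM, with 33 and 58 members at this level. The 279 genes of other organs went the other way, from 1360 to 684 RPKM, with 131 and 79 members at this level. Lists of blood and vessels summed to 5659 and 4302 RPKM, most of it globin. Genes of muscle, cartilage, liver, nerve and skin thus stood higher in the library labelled E14, and genes of the testis and the urinary tract in that labelled E18.

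**Figure D2:**
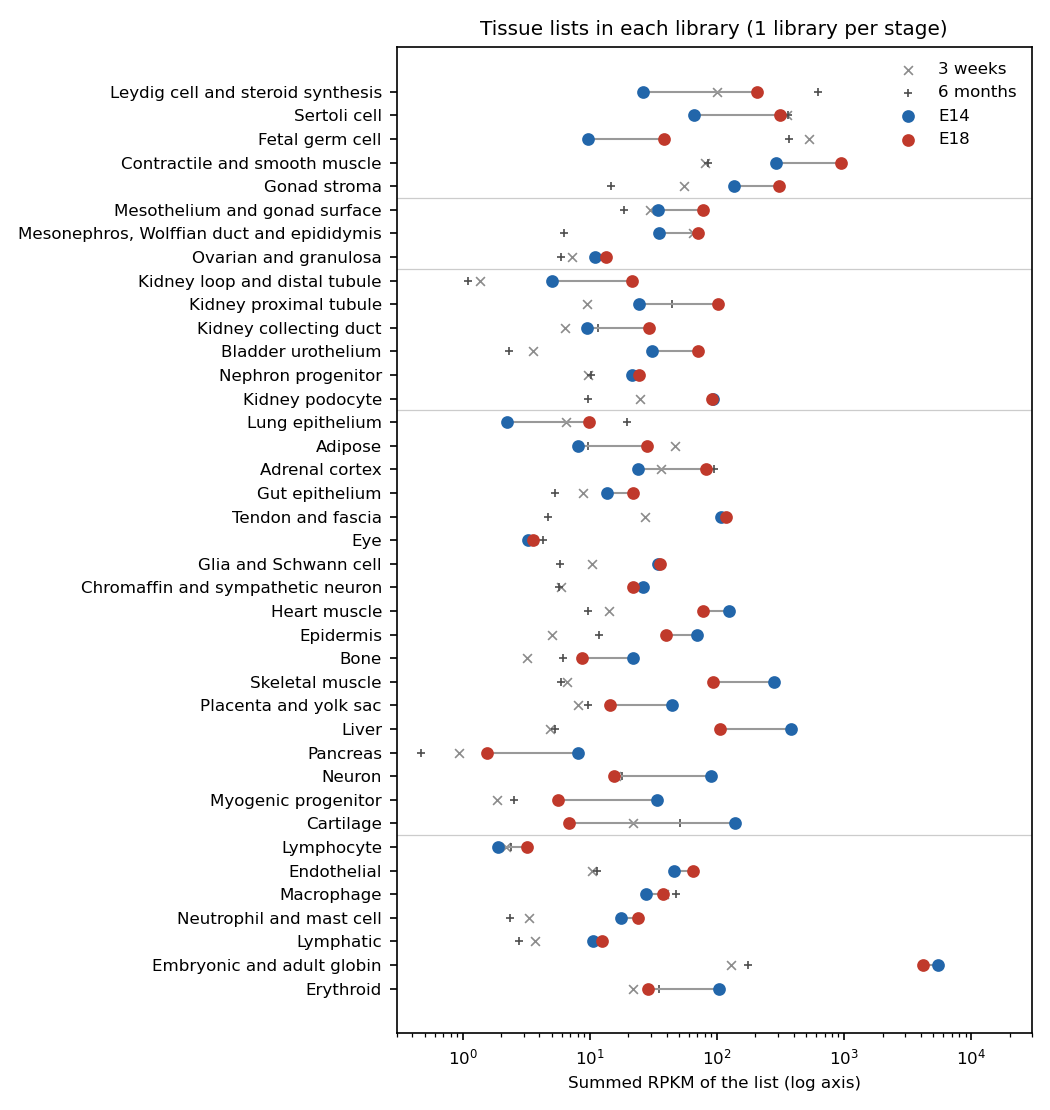
Summed RPKM of each tissue list on a log axis, with E14 in blue, E18 in red and the postnatal libraries as grey crosses, grouped from top to bottom into testis, genital tract, urinary tract, other organs, and blood and vessels (1 library per stage). Cartilage had the widest gap towards E14 (139 and 6.85 RPKM) and Leydig cell genes the widest towards E18 among the testis lists (25.9 and 204).

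Sertoli cell genes formed the broadest block of higher genes. Of 28 listed members 23 were measured, and 21 of them were higher and 0 lower at E18, with a median difference of 1.79 beside 0.11 over all established symbols. The largest differences were those of Defb19, Cst9 and Inha, followed by Amh. Inha, the alpha subunit of the pituitary feedback hormone inhibin, was at 2.98 RPKM at E14 and 62.6 at E18, and at 29.4 and 19.3 in the postnatal libraries. On 171 and 3160 reads its ratio was 21 (18 to 24.6). Inha therefore stood higher at E18 than in any other library of the series, and Amh likewise, with 0.478 RPKM at 3 weeks and 0.218 at 6 months. Aard, a gene of unclear function, was at 0.896 and 16.7 RPKM, Clu, a secreted chaperone, at 2.27 and 26.3, and Ptgds, a prostaglandin synthase of the Sertoli cell programme, at 0.343 and 8.50. Dhh, the hedgehog ligand that Sertoli cells send to Leydig cells, was at 0.239 and 7.64 RPKM. Wt1 and Gata4, transcription factors of the gonadal ridge, were at 1.64 and 7.95 and at 0.237 and 2.13 RPKM. Fshr, the receptor of follicle-stimulating hormone, had 0 reads at E14 and 47 at E18, which is at least 17.8-fold higher against a floor of 3 reads. The counting interval of the Fshr ratio began lower, at 13.9. The 2 measured members that were not higher were Sox9 and Trf, the iron carrier, at 25.5 and 13.4 RPKM. Both also belong to other tissues of the body, cartilage and liver.

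The RefSeq promoter window of Inha is shown with the motif AGGTCA, a half-site of nuclear receptors. The motif was found in 6 of 17 Sertoli cell windows (35.3%), that of Inha included, and in 16.3% of all 32851 windows. In the gene annotation used here Inha begins at base 75507077 of the plus strand. The window shown thus lies inside the annotated gene, not upstream of it. Windows are RefSeq promoters on GRCm38.p6, from 250 bases before to 50 bases after the start used there, and both strands were searched. Of the 9994 established symbols measured, 7366 had a window. The motifs were chosen after values were seen, and a match is a description of letters, not of a bound site. The longer motif CAAGGTCA contains the shorter one and is the usual site of the steroidogenic factor encoded by Nr5a1. It was in 0 of 19 windows of the Leydig cell list and in 1.56% of all windows. Among established symbols it was in 3.03% of 363 windows of higher genes and 1.84% of 163 windows of lower genes. The share for all measured symbols was 1.02%. In the sequence below, chr1:75507359-75507658 on the plus strand, the match is in capitals and begins at base -69.
Inha: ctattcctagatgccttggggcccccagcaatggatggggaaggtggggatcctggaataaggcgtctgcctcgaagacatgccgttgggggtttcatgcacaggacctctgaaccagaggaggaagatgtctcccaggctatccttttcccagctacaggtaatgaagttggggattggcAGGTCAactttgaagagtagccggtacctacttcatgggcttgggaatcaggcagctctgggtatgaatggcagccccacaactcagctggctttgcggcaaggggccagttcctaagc

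Genes of Leydig cells and steroid synthesis were higher in 12 of 15 measured cases (of 19 listed) and lower in 0, with a median difference of 1.76. Insl3, which drives the descent of the testis, and Cyp17a1 led the list. Hsd17b3, which makes testosterone from androstenedione, was at 0.0999 RPKM at E14 and 12.5 at E18, and at 1.35 at 3 weeks and 9.21 at 6 months. Its paralogue Hsd17b1 was at 0.115 and 13.3 RPKM, and at 0.308 and 0.0834 after birth. Hsd17b1 was therefore high in the E18 library and under 1 RPKM in the other 3, whereas Hsd17b3 was high again at 6 months. Nr5a1, the steroidogenic transcription factor, was at 0.394 and 12 RPKM. Hsd3b1, Cyp11a1 and Star, enzymes and carrier of the first steps from cholesterol, were at 1.41, 3.18 and 1.18 RPKM at E14 and at 18.9, 29.5 and 6.04 at E18. Ren1, the renin gene, which fetal gonad, adrenal and kidney share, was at 1.85 and 15.3 RPKM.

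Several of these genes also mark the adrenal cortex, so its own genes were read beside them. In the adrenal cortex list 10 of 14 members were measured, and the 4 higher ones (Nr5a1, Hsd3b1, Cyp11a1, Star) are shared with Leydig cells. The 1 lower member was NOV, at 4.61 and 1.04 RPKM. The adrenal enzymes Cyp11b1 and Cyp21a1 were at 1.36 and 1.31 RPKM at E14 and at 0.487 and 0.860 at E18. Neither passed 2-fold on the scale with the pseudocount, and without it the ratio of Cyp11b1 was 0.358 (0.244 to 0.514). Akr1b7, an adrenal aldo-keto reductase, was at 3.39 and 3.10 RPKM. Pnmt, the adrenaline-making enzyme, was the single higher member of the chromaffin list, at 0.200 and 2.94 RPKM, while Dbh, which acts just before it, was at 1.08 and 0.249. The 2 lower members of that list were Prph (4.30 and 1.08) and Stmn2 (5.63 and 1.31).

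Germ cell genes were low in both libraries and mostly higher at E18. Of 24 listed members 11 were measured, 9 were higher and 0 lower, with a summed level of 9.62 and 38.3 RPKM. Dazl, an RNA-binding protein of germ cells, was at 0.0995 and 3.53 RPKM, on 14 and 437 reads, and reached 37.6 at 3 weeks. Ddx4, the germ cell helicase, was at 0.126 and 2.68. Tex19.1 and Tex19.2, germ cell genes outside the list that were named after their values were seen, were at 0.0549 and 0.0126 RPKM at E14 and at 3.78 and 1.91 at E18. Kit, the stem cell factor receptor of germ cells and mast cells, was nearly level at 1.90 and 1.95 RPKM. Sox2 was at 1.16 and 0.297 and did not pass 2-fold on the scale with the pseudocount.

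Contractile genes reached the highest levels of any testis list, 290 RPKM at E14 and 949 at E18 in sum. All 15 members were measured, and 8 were higher and 0 lower. Tagln and Actg2, actin-associated and enteric smooth muscle proteins, led. Cnn1, Mylk and Myh11, which regulate or form the smooth muscle motor, were at 10.9, 6.73 and 6.4 RPKM at E14 and at 43.8, 21 and 18.1 at E18. Acta2 was at 90.9 and 215 RPKM and at 24.5 and 6.72 after birth. These genes are shared by peritubular cells, blood vessels, ducts, bladder and gut, and the list summed to 80.3 and 84.8 RPKM in the postnatal libraries. Myocd, the coactivator of the smooth muscle programme, was at 2.85 and 2.34 RPKM.

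Stromal genes of the gonad were higher in 6 of 15 measured cases (of 16) and lower in 0. Inhba, the activin subunit, was at 1.93 and 9.74 RPKM, Dcn, the collagen-binding decorin, at 43.9 and 150, and Tcf21, a transcription factor of gonadal and renal mesenchyme, at 10.1 and 35.2. Gas1, Osr1 and Ptch1, genes of hedgehog signalling and intermediate mesoderm, were at 18.7, 3.69 and 2.61 RPKM at E14 and at 18, 3.57 and 3.49 at E18, all within 2-fold.

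Markers of the gonad surface were partly higher at E18, and those of the ducts mostly lay within 2-fold. In the mesothelium list 7 of 13 measured members (of 15) were higher and 0 lower, led by Wnt6 (0.945 and 7.85 RPKM) and by the uroplakins Upk1b (2.11 and 11.9) and Upk3b (0.701 and 4.77), which cover serosal surfaces as well as the bladder. Msln, which encodes mesothelin, was at 0.418 and 2.77. Among genes of the mesonephros and its ducts, 10 of 22 were measured, and 1 was higher. That gene was Cdh16, the kidney-specific cadherin, at 1.70 and 16.9 RPKM, a ratio of 9.91 (8.61 to 11.4). The duct transcription factors Pax8 and Gata3 stood at 0.288 and 0.821 RPKM at E14 and at 1.05 and 1.09 at E18. Both were within 2-fold on the scale with the pseudocount. Of the ovarian list 7 of 16 members were measured, with Rspo1 and Lhx9 higher and Irx5 lower, and Fst, a granulosa cell gene, was at 1.57 and 0.409 RPKM.

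Differentiated kidney genes stood higher at E18 and were low at E14. In the proximal tubule list 18 of 24 members were measured, 13 were higher and 0 lower, and the sum went from 24.3 to 102 RPKM. After birth the same sum was 9.46 and 44.1 RPKM, and 39.0 of the latter came from Pdzk1 alone. Slc34a1, the phosphate carrier of the brush border, was at 0.585 RPKM at E14 and 12 at E18, and after birth at 0 and 0.161. Kap, an androgen-regulated kidney protein, had 0 reads at E14 and 119 at E18 (5.72 RPKM), at least 45.1-fold higher against the floor of 3 reads. The counting interval of its ratio began lower, at 36.1. Kap was listed at 0 in both postnatal libraries. Lrp2 and Cubn, the endocytic receptors of the tubule, were at 0.383 and 0.207 RPKM at E14 and at 5.38 and 2.44 at E18.

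Later nephron segments showed the same direction. Of 16 genes of the loop and distal tubule 8 were measured and 6 were higher. Among them were Umod (0.0390 and 3.06 RPKM), a urinary protein, and Slc12a1 (0.189 and 2.22), the transporter blocked by loop diuretics. In the collecting duct list 7 of 16 were measured and 2 higher. Aqp2, the vasopressin-controlled water channel, was at 0.109 RPKM at E14 on 6 reads and at 7.72 at E18 on 374 reads, a ratio of 70.8 (32.2 to 194). Podocyte genes were mixed. Wt1, Tcf21, Podxl and Col4a4, all shared with gonad cells or other tissues, were higher, and Cdkn1c, an imprinted inhibitor of the cell cycle, was lower (62.9 and 17.4 RPKM). Genes of nephron progenitors did not follow the tubule. Of 12 measured members (of 15) 1 was higher (Cited1) and 1 lower, and Six2, the progenitor regulator, was at 1.32 and 0.549 RPKM.

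The bladder lining was represented as well, with 7 of 10 measured members (of 16) higher and 1 lower. Upk3a and Upk1a, uroplakins of the urothelial plaque, were at 2.56 and 2.85 RPKM at E14 and at 12.5 and 12.9 at E18, against at most 0.270 in the postnatal libraries. Psca was at 0.661 and 8.19. Krt5, a keratin of basal cells in bladder and skin, was lower, at 17 and 7.56. Markers of the proximal, loop and distal tubule and of the bladder lining were thus mostly higher in the library in which testis genes were higher, while nephron progenitor genes were not. Their part in differences of genes that kidney and testis share was not tested.

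The phosphate carrier Slc34a1 is shown with its promoter because 5 of 21 proximal tubule windows (23.8%) held the motif GTTAAT, against 7.10% of all windows. The motif is known from promoters of kidney, liver and gut epithelium. The window is chr13:55399398-55399697 on the plus strand, and its 2 matches, of which the first is read on the opposite strand, begin at bases -89 and -61.
Slc34a1: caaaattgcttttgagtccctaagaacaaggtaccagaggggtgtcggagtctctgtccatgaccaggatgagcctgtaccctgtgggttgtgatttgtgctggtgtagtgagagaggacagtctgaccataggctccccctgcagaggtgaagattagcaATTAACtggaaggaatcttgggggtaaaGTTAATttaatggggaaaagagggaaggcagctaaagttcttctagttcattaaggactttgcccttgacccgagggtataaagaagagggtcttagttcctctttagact

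Skeletal muscle genes were mostly lower at E18. Of 22 listed members 18 were measured, 11 were lower and 1 higher, and their sum went from 280 to 93.6 RPKM. Mylpf, the fast regulatory light chain, was at 146 RPKM at E14 and 10.7 at E18, and at 0.233 and 0.379 after birth. On 5030 and 324 reads the ratio was 0.0732 (0.0652 to 0.0819). Tnni1, Tnnc1 and Tnnt1, troponins of slow fibres, were at 20.1, 13.5 and 8.91 RPKM at E14 and at 1.77, 1.38 and 2.12 at E18. Myh3, the embryonic myosin, was at 9.22 and 0.717. The single higher member was Des, the desmin gene (16.3 and 37.0 RPKM), which is shared with smooth muscle and fell within 2-fold when E18 was rescaled by the median of ratios. Ckm and Acta1, genes of differentiated fibres, were at 15.9 and 13.3 RPKM at E14 and at 20.4 and 12.1 at E18, within 2-fold. Muscle genes were therefore not uniformly lower.

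Myogenic progenitor genes were lower in 7 of 10 measured cases (of 13 found) and higher in 0. Myog, the regulator of fibre formation, was at 17.8 and 0.967 RPKM, and Myod1, the determination factor, at 3.02 and 0.0630, on 109 and 2 reads, a ratio of 0.0209 (0.00249 to 0.0772). Met, a receptor also present on other epithelia and mesenchyme, was at 1.17 and 2.41. Genes of the same tissue outside the lists, named after their values were seen, included Sln (7.86 and 1.35 RPKM), Klhl41 (6.39 and 0.647) and Smyd1 (3.34 and 0.360), which act in calcium uptake and sarcomere assembly.

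The Mylpf promoter is shown because E-boxes of the form CAGCTG, the sequence read by myogenic factors and other helix-loop-helix proteins, stood in 12 of 21 skeletal muscle windows (57.1%) against 16.3% of all windows. Among established symbols the share was 25.2% of 163 windows of lower genes and 17.9% of 363 windows of higher genes. The motif of the muscle factor MEF2 was in 2 of the 21 muscle windows (9.52%) and in 3.69% of all windows. The window is chr7:127211358-127211657 on the plus strand, and the E-box begins at base -51. In the gene annotation used here Mylpf begins at base 127208890 of that strand, so this window too lies inside the annotated span.
Mylpf: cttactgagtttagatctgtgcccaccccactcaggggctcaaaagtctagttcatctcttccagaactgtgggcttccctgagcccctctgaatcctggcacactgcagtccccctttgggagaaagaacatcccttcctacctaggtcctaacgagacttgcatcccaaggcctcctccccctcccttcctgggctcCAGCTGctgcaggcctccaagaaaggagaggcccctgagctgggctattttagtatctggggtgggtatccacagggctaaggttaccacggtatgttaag

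Cartilage genes differed most of all lists in the direction of E14. Of 17 members found 14 were measured and 13 were lower, with a median difference of -2.40. Col9a1, Col2a1 and Col11a2, fibrillar and associated collagens of cartilage, were at 25.9, 20.4 and 13.3 RPKM at E14 and at 0.251, 0.145 and 0.265 at E18. Matn1, a cartilage matrix protein, was at 16.5 RPKM on 1287 reads and at 0.0146 on 1 read, a ratio of 0.000883 (2.23e-05 to 0.00493). Comp and Acan, matrix proteins of cartilage and, for the former, tendon, were at 7.27 and 4.77 and at 0.169 and 0.0782. In the postnatal libraries Comp was at 10.8 and 38.8 RPKM, Col9a3 at 4.57 and 3.20 and Epyc, a matrix proteoglycan, at 4.12 and 3.63. Ibsp, a bone matrix protein, was at 5.32 and 0.0282 RPKM and was the single lower member of the bone list, while the other 5 measured members lay within 2-fold. Col10a1, the collagen of maturing growth plate cartilage, was at 10.7 and 0.420. Tendon genes were mixed, with Tnmd (3.09 and 0.0863), Thbs4 and Kera lower and the general fibroblast collagens Col1a1 and Col3a1 at 21 and 42.6 RPKM at E14 and at 23.6 and 62.5 at E18.

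Liver genes summed to 379 RPKM at E14 and 105 at E18, with 8 of 16 measured members (of 20) lower and 0 higher. Afp, the fetal serum protein, was at 93.9 and 7.66 RPKM, Alb, albumin, at 154 and 41.0, and Ttr, the thyroid hormone carrier, at 40.8 and 4.83. All 3 were under 0.3 RPKM in the postnatal libraries. Fibrinogen genes did not follow. Fgb and Fgg were at 4.38 and 1.09 RPKM at E14 and at 5.62 and 1.25 at E18, and Ahsg, another fetal liver protein, was at 16.8 and 12.4. The E18 library therefore still held liver transcripts, and the ratio differed between liver genes.

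The Alb promoter is shown because the motif GTTAAT was in 9 of 18 liver windows. The window is chr5:90460620-90460919 on the plus strand, and the match begins at base -32.
Alb: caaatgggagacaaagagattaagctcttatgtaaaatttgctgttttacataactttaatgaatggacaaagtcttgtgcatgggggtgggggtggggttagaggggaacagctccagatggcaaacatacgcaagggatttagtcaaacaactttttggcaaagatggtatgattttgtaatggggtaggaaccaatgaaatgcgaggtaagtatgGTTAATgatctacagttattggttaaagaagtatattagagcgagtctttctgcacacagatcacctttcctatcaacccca

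Of the digestive genes, Cpa1, a pancreatic carboxypeptidase, was at 4.02 and 0.317 RPKM and was the only measured member of 14 in the pancreas list. Ctrb1, chymotrypsinogen, was at 11.1 and 0.0988, and Cym, the milk-clotting protease of the stomach, at 11.1 and 0.213. Pnliprp1 and Clps, further pancreatic genes named after their values were seen, were at 4.60 and 2.38 RPKM at E14 and at 0.0541 and 0.0531 at E18. In the gut list Apoa4, an intestinal apolipoprotein, was higher, at 0.0142 RPKM on 1 read and 6.89 on 428 reads. Fabp2, a fatty acid carrier of the gut, was also higher, at 0.133 and 1.30 RPKM, and Lgals4 was lower, at 2.77 and 0.555. Napsa, an aspartic protease of lung and kidney tubule, was at 0.202 and 6.54 RPKM, while surfactant-linked Abca3 was at 0.996 and 1.48.

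Neuronal genes were lower or within 2-fold. Of 21 listed members 13 were measured, 6 were lower and 0 higher, and the sum was 89.2 and 15.4 RPKM. Tubb3, the neuronal tubulin, was at 38.6 and 5.74 RPKM, Stmn3 at 12.3 and 1.31, and Dcx, a microtubule protein of young neurons, at 6.44 and 0.610. Glial and Schwann cell genes were nearly level in sum (34.2 and 35.6 RPKM), and Sox10, the neural crest regulator, was lower at 2.07 and 0.481. Skin genes were lower in 5 of 12 measured cases (of 18), with Krt1 and Krt10 of the upper epidermis at 8.10 and 7.92 RPKM at E14 and at 0.167 and 0.321 at E18. Krt15 of basal epithelium was level at 13 and 12.8. In the heart list 3 of 15 were measured. Tnni3 was higher (0.280 and 2.58 RPKM) but stood at 10.7 and 5.91 after birth, and Actc1, an actin of heart and fetal skeletal muscle, was at 115 and 66.4. Fabp4, the fatty acid carrier of fat cells and capillaries, was at 6.10 and 25.2 RPKM.

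Globins were the most abundant protein-coding transcripts of both libraries. Hba-a1 and Hba-a2, near-identical alpha globins whose read numbers were equal to within 2 reads in each library, were at 1807 and 2021 RPKM at E14 and at 1436 and 1606 at E18, so reads of the pair cannot be told apart. Hbb-y, the embryonic beta globin, was at 92.5 and 0.354 RPKM, on 2378 and 8 reads, a ratio of 0.00382 (0.00165 to 0.00755). Hba-x, the embryonic alpha-like globin, did not follow it, at 41.7 and 35.2. Other erythroid genes were lower in 12 of 16 measured cases (of 18 found). Slc4a1, the anion exchanger of the red cell, was at 23.7 and 1.63 RPKM, and Klf1, the erythroid transcription factor, at 5.31 and 0.305. Alas2, the haem enzyme of late erythroid cells, was at 22.6 and 17.3, within 2-fold like the adult globins. The GATA motif AGATAA stood in 7 of 17 erythroid windows (41.2%) and in 11.2% of all windows.

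Vessel and macrophage genes lay within 2-fold. Of 15 measured endothelial genes (of 18) 0 passed 2-fold in either direction, and the same held for 4 measured lymphatic and 12 measured macrophage genes. Over all established symbols 93.0% lay within 2-fold, so 0 calls in lists this short is near that share. Cdh5, the junctional cadherin of endothelium, was at 12.6 and 22.5 RPKM, and C1qa, a macrophage complement gene, at 4.18 and 5.99. S100a9, a neutrophil protein, was higher at 2.50 and 6.63. In the same list Ngp, a granule protein, was at 0.633 and 2.11 RPKM and Cpa3, a mast cell protease, at 3.57 and 1.43, within 2-fold on the scale with the pseudocount.

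**Figure D3:**
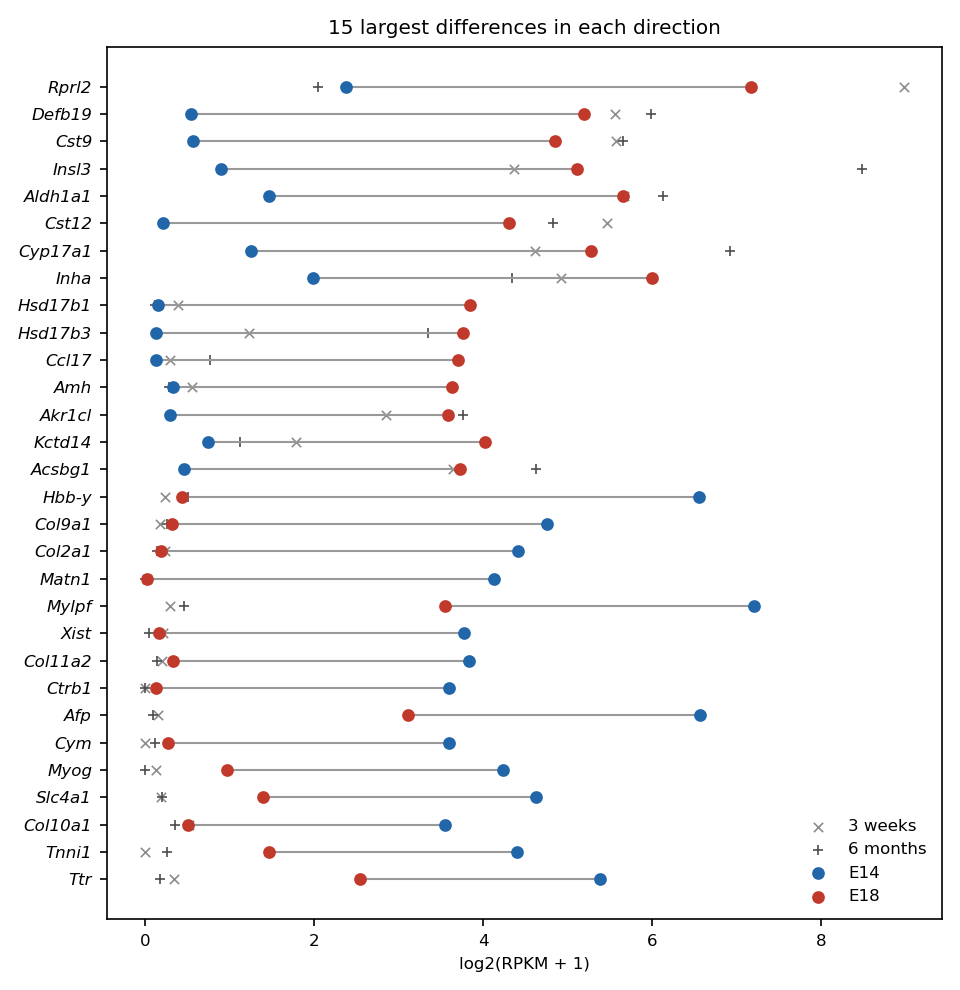
Levels of established symbols with a fetal mean of at least 5 RPKM, namely the 15 with the largest difference on either side, as log2(RPKM + 1), with E14 in blue, E18 in red and the postnatal libraries as grey crosses. Each of the 15 lower genes is at 0.433 RPKM or less in both postnatal libraries, whereas the higher genes are spread, from Hsd17b1 and Amh near 0 after birth to Insl3 at 357 RPKM at 6 months.

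Of these 30 genes the 15 higher ones included 3 secreted proteins expressed in Sertoli cells, Defb19, Cst9 and Cst12 (0.157 and 18.8 RPKM), which stayed at 27.3 RPKM or more in both postnatal libraries. Aldh1a1, an enzyme of retinoic acid synthesis, was at 1.77 and 49.4 RPKM and at 49.6 and 68.8 after birth. Ccl17, a chemokine, was at 0.10 and 12 RPKM on 2 and 211 reads, and at 0.229 and 0.706 after birth. Kctd14, a gene of little-known function, was at 0.674 and 15.2, Akr1cl, an aldo-keto reductase, at 0.226 and 11, and Acsbg1, an acyl-CoA synthetase of steroid-making tissue and brain, at 0.384 and 12.2. Rprl2, a copy of the RNA of ribonuclease P, was at 4.20 and 143 RPKM, and its paralogue Rprl3 at 29.7 and 261. Reads of these copies may have been split or shared.

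Levels in the postnatal libraries did not enter the difference, but the called sets were chosen by their fetal levels. Among 9368 measured protein-coding symbols, 21.2% were under 1 RPKM in both postnatal libraries. The share was 72.4% for the 199 lower genes and 30.7% for the 423 higher genes. At E18, 35.2% of the lower and 100% of the higher genes reached 1 RPKM. The sets thus differed in E18 level by selection, so these shares describe them and test nothing. The median level of the lower genes was 4.31 RPKM at E14 and 0.498 at E18, and after birth 0.178 and 0.197. For the higher genes the medians were 0.765, 4.54, 1.98 and 1.48 RPKM. Genes lower at E18 were thus mostly under 1 RPKM in the postnatal testis libraries as well.

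Many called genes lay outside every list and family, 239 of the 446 higher and 109 of the 255 lower symbols. At 4-fold they numbered 26 of 72 and 11 of 51. The following were named after their values were seen. Several higher ones are known from kidney tubules, such as Hao2 (0.351 and 5.33 RPKM), Folr1 (0.537 and 6.47), Mep1a (0.320 and 5.72) and S100g (0.266 and 4.54). Fbp1, an enzyme of gluconeogenesis, was at 0.347 and 6.64 RPKM and reached 59.8 and 96.6 in the postnatal libraries. Others act in the testis, such as Amhr2, the receptor of anti-Müllerian hormone (0.243 and 2.62), and Shbg, the androgen-binding protein (0.546 and 4.69). Glul, glutamine synthetase, was at 12.1 and 50.6 RPKM and its processed copy Glns-ps1 at 5.24 and 26.4, where reads may be shared. Penk, the enkephalin precursor, was at 6.87 and 24.1. Of the lower ones, Crabp1 and Crabp2, which bind retinoic acid, were at 24.4 and 9.33 RPKM at E14 and at 4.01 and 2.59 at E18. Adh1, an alcohol dehydrogenase, was higher, at 3.75 and 30.6 RPKM.

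Several housekeeping and stress lists held no call. None of 25 measured proliferation genes, 19 translation factors, 18 heat shock genes, 15 hypoxia genes, 18 genes of cholesterol synthesis and 15 immediate early genes passed 2-fold in either direction. Over all established symbols 93.0% lay within 2-fold, so 0 calls in a single list of this size is not far from that share. Ccnb2, the mitotic cyclin, was at 11.5 and 10.4 RPKM. The scaling moved medians of such flat lists across 0, so no direction is given for them. Glycolysis had 1 call of 21, Ldhb, the heart-type lactate dehydrogenase, at 13.3 and 35.4 RPKM, while Ldha was at 39.1 and 37.2.

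Matrix genes were higher or within 2-fold. Of 21 measured basement membrane genes (of 22) 5 were higher and 0 lower, led by Col4a5 (2.66 and 9.77 RPKM) and Lama2 (0.883 and 3.75). Among elastic fibre and fibrillar matrix genes 7 of 27 were higher, with Dpt at 4.21 and 14.7, Ltbp4 at 3.82 and 12.4 and Mfap4 at 35.8 and 81.7, and 0 were lower. Matrix proteases and inhibitors had 7 of 20 higher and 0 lower, with Adamts5, an aggrecanase, at 1.22 and 5.09 and Timp3 at 4.12 and 10.8. Across the 32 measured collagen genes 8 were higher and 7 lower. The lower ones were cartilage collagens and Col10a1, and the higher ones were Col15a1 and collagens of basement membrane and of microfibrils, such as Col6a1 and Col6a2 (20.1 and 21.7 RPKM at E14, 50.7 and 57.4 at E18). Among called collagens, the direction thus went with the kind of matrix they form. The basement membrane list summed to 132 RPKM at E14 and 244 at E18, and to 79.5 and 28 in the postnatal libraries.

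Detoxifying enzymes differed as a family. Of 17 measured glutathione transferases (of 21) 7 were higher and 0 lower. Gstm1, Gstm2 and Gstm7 were at 3.42, 1.29 and 1.88 RPKM at E14 and at 39.1, 20.8 and 12.3 at E18, and Gstm6 at 0.0258 and 3.39. Mu-class genes are close copies, so their reads may be shared. Gpx3, the secreted glutathione peroxidase made in kidney, was at 4.38 and 31.7 RPKM, whereas Gpx1 was lower, at 86.0 and 34.4. The transferase family summed to 53.4 and 155 RPKM and reached 434 and 879 in the postnatal libraries. Aldehyde dehydrogenases had 4 of 15 higher and 0 lower, and cytochrome P450 genes 4 of 13 higher, Cyp17a1 and Cyp11a1 of steroid synthesis, Cyp27a1 (0.381 and 2.98) and Cyp2j5 (0.0279 and 2.18).

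**Figure D4:**
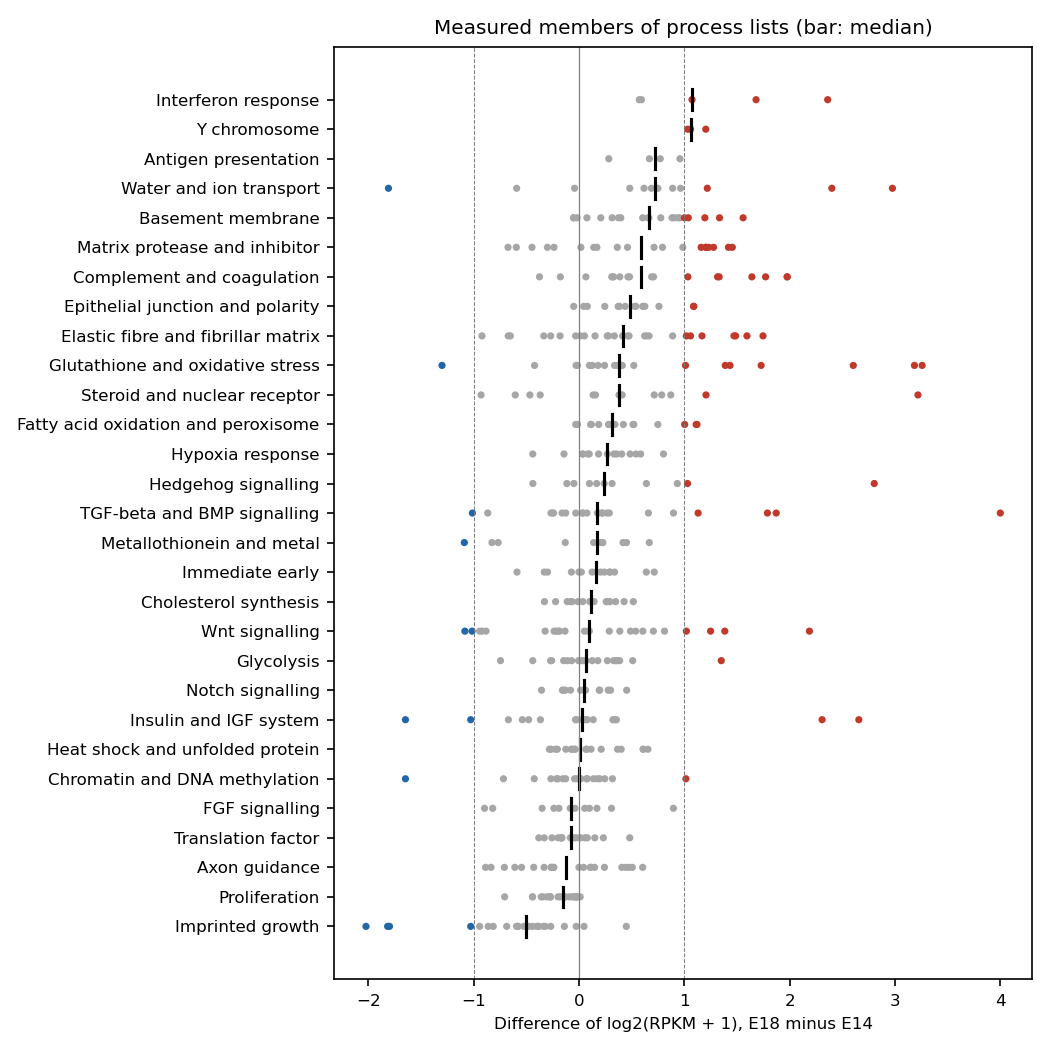
Differences of log2(RPKM + 1), E18 minus E14, for the measured members of each process list, with a bar at the list median, red for higher and blue for lower members and dashed lines at 2-fold. Members of the proliferation and translation lists lie between the dashed lines, and imprinted growth genes lie mostly to the left of 0.

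Complement and coagulation genes were higher in 7 of 18 measured cases (of 22) and lower in 0. Serping1, the inhibitor of the first complement component, was at 2.75 and 13.8 RPKM, and Thbd, thrombomodulin, at 1.24 and 7.83. In the interferon list 5 of 18 were measured and 3 higher, with Bst2, a membrane tether of viruses, at 2.95 and 19.3 RPKM and Ifi27 at 1.63 and 7.43, while Isg15 was at 0.374 and 1.04. Of serpins, 6 of 19 measured genes were higher and 3 lower. Serpina3a (0.138 and 9.59 RPKM) and Serpina5 (0.0238 and 6.18), protease inhibitors, were higher, and Serpina6, the corticosteroid carrier of plasma, was lower (14.9 and 1.29). Fatty acid oxidation had 3 of 16 higher, among them Cpt1a, the gate of mitochondrial import, at 2.44 and 6.49.

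Signalling lists held calls in both directions. In the TGF-beta list 4 of 23 measured members (of 31) were higher, among them the inhibin and activin subunits Inha, Inhba and Inhbb (0.109 and 1.43 RPKM), and 1 lower, the antagonist Nog (1.87 and 0.426). Of 26 measured Wnt genes (of 33) 4 were higher and 2 lower. The higher ones were Wnt6, Tcf7, Sfrp1 and Rspo1, and the lower ones the secreted inhibitors Sfrp2 (7.09 and 2.82) and Wif1 (1.41 and 0.193). In the hedgehog list Dhh and Hhip, a ligand and a decoy receptor, were higher, and the receptor Smo was at 9.10 and 10.4 RPKM. The insulin-like growth factor list had Igfbp7 (6.99 and 49.4 RPKM) and Igfbp6 (0.658 and 7.21), binding proteins, higher, and the fetal growth factor Igf2 (157 and 76.8) lower. None of 13 measured FGF genes, 13 Notch genes and 22 axon guidance genes passed 2-fold, beside 93.0% of all established symbols within 2-fold. Among nuclear receptors 2 of 15 measured genes were higher, Nr5a1 and Nr2f2 (6.27 and 15.8), and among water and ion transporters 3 of 12, including Fxyd2 (0.632 and 7.61), a regulator of the sodium pump.

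Imprinted genes of fetal growth were lower in 4 of 24 measured cases (of 26) and higher in 0, with a median of -0.50. Nnat was at 51.8 and 12 RPKM, Peg10 at 19.9 and 4.93, and Cdkn1c and Igf2 as given. H19 was at 196 and 101 and Mest at 123 and 76.3, within 2-fold. The list median was below 0 under each of the 5 alternatives run. Hmga2, a chromatin protein of embryonic growth, was at 4.95 and 0.900 RPKM. Dlk1, at 18 and 18.6, did not share this direction.

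Hox genes, which record position along the body axis, were read by paralogue group. Of 39 genes 24 were measured, 4 were higher and 1 lower. Groups 1 to 8, expressed from the neck to the trunk, summed to 17.4 RPKM at E14 and 32.3 at E18. Within groups 9 to 11, which summed to 22.3 and 23.5, group 9 was at 6.11 and 11.1, group 10 at 10.4 and 8.54, and group 11 at 5.81 and 3.90. Groups 12 and 13, of genital tubercle, hindgut and distal limb, were at 7.53 and 2.17. Hoxd9 was at 1.31 and 7.01 RPKM, a ratio of 5.37 (4.36 to 6.65), and Hoxd13 at 3.90 and 0.930, a ratio of 0.238 (0.184 to 0.304). Hoxc8, Hoxd4 and Hoxc6 were at 0.561, 1.34 and 0.925 RPKM at E14 and at 3.21, 4.12 and 3.02 at E18. In the postnatal libraries groups 12 and 13 summed to 0.106 and 0.0564 RPKM.

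**Figure D5:**
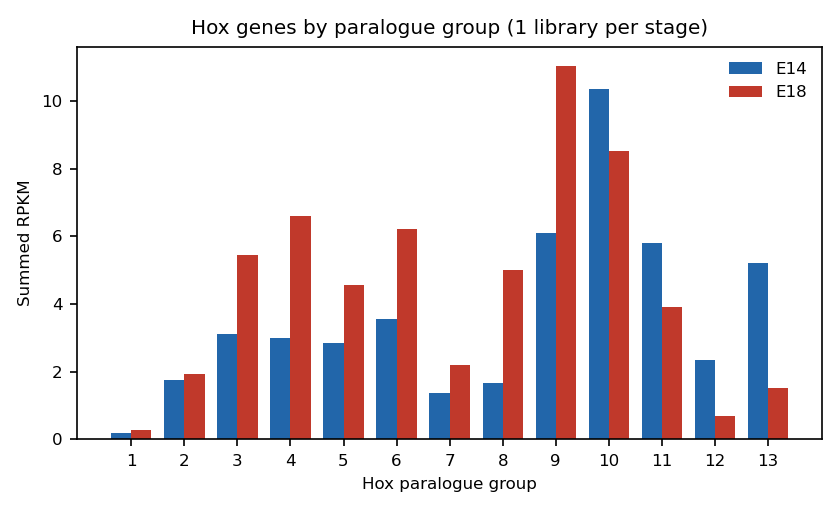
Summed RPKM of the Hox genes of each paralogue group in the E14 (blue) and E18 (red) libraries, 1 library per stage, with the axis starting at 0. The sums of groups 1 to 9 were higher at E18 and those of groups 10 to 13 lower.

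Among other patterning factors, Foxs1, a forkhead gene of pericytes and gonadal somatic cells, was at 0.608 and 7.60 RPKM, a ratio of 12.5 (8.64 to 18.7). Foxf1 and Foxf2, of gut and limb mesenchyme, were lower, at 5.82 and 2.93 RPKM at E14 and at 1.90 and 0.321 at E18. Tbx2 was at 4.73 and 9.82 and Sox4 at 8.55 and 7.20, within 2-fold. Isl1, a LIM factor of motor neurons and genital mesenchyme, was at 2.86 and 0.545, and Lhx9, its relative in the gonad, at 0.80 and 2.61. Tubulins had 4 of 12 measured genes lower, Tubb3, Tubb2b (74.1 and 17.3), Tubb2a (53.4 and 15.3) and Tuba1a (156 and 73.9), all prominent in neurons. Troponins had 4 of 8 lower and myosins 5 of 13, against higher calls for the smooth muscle genes Myh11 and Myl9. Against the 4.46% higher and 2.55% lower among all established symbols, 12 of 144 measured solute carriers were higher and 2 lower, and of 211 zinc finger genes of the Zfp series 0 passed 2-fold. None of the 36 complex I, 35 proteasome and 66 mitochondrial ribosomal protein genes measured was called, and 0 of 1098 olfactory receptor genes reached 1 RPKM in either library.

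Replication-dependent histone genes were prominent at both stages, with 8476 RPKM at E14 and 5783 at E18 in sum. Beside 2.55% lower among all established symbols, 2 of the 70 histone genes were lower, which is near that share. Their transcripts lack poly(A) tails, and near-identical copies share reads, so the values are uncertain. Small RNA genes were called mostly downward. Among small nucleolar RNAs 14 of 85 measured were lower and 0 higher, but the larger library had a median of 14 reads per gene of that type. The share called was also high among accessions named with DQ, 46 higher and 17 lower of 134, where the median was 4 reads, so counting error weighs on these calls.

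MicroRNA entries name the hairpin, and which transcripts gave their reads was not tested. The length recovered from the values equalled that of the annotated hairpin for 135 of 176 measured entries, was shorter for 17 and longer for 24. Of the 176 entries 15 were higher and 30 lower, with a median of 8.5 recovered reads in the larger library. The region between Dlk1 and Dio3 on chromosome 12 (109452823 to 110281097, GRCm38), an imprinted cluster, was singled out after values were seen. It held 47 of the measured hairpins, of which 15 were lower and 1 higher (Mir668), against 15 lower and 14 higher of the 129 elsewhere. Their host transcripts Meg3, Rian and Mirg were at 12.2, 18.9 and 4.47 RPKM at E14 and at 8.21, 13.6 and 3.55 at E18, each within 2-fold. Single hairpins rested on few reads, such as 12 and 1 for Mir493 and 10 and 0 for Mir3072. Mir136 was at 6.27 and 1.43 RPKM.

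Outside the cluster, Mir144, known from red cells, was at 3.51 RPKM at E14 and listed at 0 at E18. Its recovered length was 22 bases against 66 annotated, so its number of reads is not given. Mir202, known from Sertoli cells, had 1 read and 7 reads (0.357 and 2.84 RPKM), a ratio of 7.96 (1.02 to 359). Mature sequences from RefSeq are shown for hairpins of the cluster and for Mir202, with the seed, bases 2 to 8, in capitals. Mir493 and Mir136 lie on the plus strand and Mir202 on the minus strand, on GRCm38.p6, and none of the 6 seeds shown is shared.
mmu-miR-493-5p: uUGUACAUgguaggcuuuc
mmu-miR-493-3p: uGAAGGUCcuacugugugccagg
mmu-miR-136-5p: aCUCCAUUuguuuugaugaugg
mmu-miR-136-3p: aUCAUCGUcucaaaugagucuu
mmu-miR-202-5p: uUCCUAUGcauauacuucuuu
mmu-miR-202-3p: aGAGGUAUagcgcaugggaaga

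Differences were spread over the genome. By chromosome, the share of measured protein-coding symbols that were higher at E18 ran from 2.81% on chromosome 12 to 7.16% on chromosome 15 among the autosomes, and the lower share from 1.20% to 3.13%. Over all measured protein-coding symbols 4.52% were higher and 2.12% lower. On the X chromosome 13 of 313 were higher and 8 lower, near those shares, and on the Y chromosome all 3 measured genes were higher. Of the 13 mitochondrial protein genes 0 were called, and their differences ran from 0.03 for mt-Nd4l to 0.79 for mt-Co2, with a median of 0.48. Mitochondrial ribosomal RNAs took a larger share of reads at E18, 4.67% against 3.17% for mt-Rnr2 and 2.18% against 1.45% for mt-Rnr1. By level, 104 of 1678 protein-coding genes of 5 to 20 RPKM were higher (6.20%) and 34 lower (2.03%). Of the 65 over 100 RPKM, 3 were higher (4.62%) and 2 lower (3.08%), beside 4.52% and 2.12% at all levels.

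Near the limit of 2-fold, Col4a2, Acaa2 and Fabp3 were just inside on the higher side, at 45.8, 25.1 and 9.76 RPKM at E18, and Gata2, Vdac3-ps1 and Nedd9 just outside, with a difference of 0.99 each. On the lower side Igf2, Snora68 and Mir453 were just inside at -1.03 each, and Rbp4, Tppp3 and Mir1949 just outside, at -0.98, -0.97 and -0.96. At the limit of 1 RPKM, Npas3 and Thsd7a were included at 1.00 RPKM at E14, while Adat2, at 0.999 RPKM at E14, and Ccnc were just under it.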

How the data were processed

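RPKM tables of 4 testis libraries were used as deposited. The deposited RPKM values are reads scaled by the authors to model length and library size. Alignment with TopHat2 to mm10 is taken per the submitters' processing notes, and the sources used here do not give the counter, annotation, strand setting or treatment of multiply mapped reads. From the steps between low values, whole reads and 1 shared model length could be recovered for 100% of 59564 entries with values in every library (relative tolerance 1e-09, lengths up to 200000 bases). The recovered length equalled the annotated one for 69.7% of 3735 single-exon genes. A factor common to all reads of an entry cannot be seen this way, in which case its interval is too wide. Symbols, types and positions came from GENCODE release M21 (GRCm38), and promoters and microRNAs from RefSeq (GRCm38.p6).

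Entries of at least 1 RPKM in either fetal library entered, and a difference of at least 1 in log2(RPKM + 1) was called. With 1 library per stage no p-value was computed. Named genes were, among established symbols, the 15 largest differences in each direction with a mean of at least 5 RPKM, up to 4 called and up to 2 abundant members of each list in each direction, up to 2 called members of each family, the most abundant genes and transcription factors, genes that check the label, and those nearest the limits. Genes given to show that a list was not uniform were also named after values were seen. Members, the 68 lists and the 36 families were chosen with earlier results of these data known. The alternatives were pseudocounts, filters, size limits, gene classes and 3 scalings. Calling was tested on simulated data. Python 3.11.15, numpy 2.4.6, pandas 2.3.3 and scipy 1.17.1 were used. No spike-in or protein sequence was used here. Some genes are not reported here.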

Additional observations from a re-analysis of the deposited data

How the results depend on the processing

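The counts of 934 higher and 574 lower entries (61.9% higher) became 1948 and 1199 with a pseudocount of 0.1, and 2038 and 1223 with none. They were 374 and 261 (58.9% higher) at a minimum of 5 RPKM, 118 and 90 (56.7%) at 4-fold, 446 and 255 for established symbols alone, and 448 and 207 (68.4%) for protein-coding genes of any name. Scaling E18 gave 690 and 669 (50.8%) by the median of ratios, 720 and 650 (52.6%) over ribosomal protein genes, and 779 and 627 (55.4%) over protein-coding genes, and shifted the median of all entries by -0.11, -0.09 and -0.06. A filter on E18 alone left 238 lower entries (79.7% higher), since entries that were high at E14 alone no longer entered. Without a filter, or without the lists of other organs, urinary tract and blood, both counts stayed within 1.5 times. The skeletal muscle list had 0 higher members under the median of ratios, because Des dropped under 2-fold. Across 150 values of the 30 named genes with the largest differences, none reversed and each stayed past 2-fold, and of 330 counts of list members 77 moved by more than 1.5 times. No paired analysis was possible because each stage has 1 library. No replicate could be left out for the same reason. Depth limits the small RNA and DQ-named entries, whose calls rest on a few reads each.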
